A study of Mus musculus with 15 samples.

Results

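Hepatocyte identity is held by a small set of DNA-binding proteins, and the 9 genes followed here encode the best known of them: *Hnf4a*, *Foxa1*, *Foxa2*, *Foxa3*, *Onecut1*, *Onecut2*, *Cebpa*, *Prox1* and *Nr5a2*. They were taken from the liver RNA-seq count table by gene symbol, 1 row per gene, and make up 9 of its 55573 rows. All 9 passed the filter on low counts, which kept 17655 genes. The mice were 8 weeks old and carried either 2 intact copies of *Esr1*, the gene for estrogen receptor alpha, or the homozygous deletion of its exon 3 in the strain B6N(Cg)-Esr1tm4.2Ksk/J (ESR1KO). The wild type (WT) group held 3 females and 3 males and the ESR1KO group 5 females and 4 males, with 1 library of ribosomal RNA-depleted liver RNA per mouse. The WT mice were littermates of the mutants according to the series title. The deletion is present in every tissue from conception, and the study describes raised testosterone in mutants of both sexes, so no group isolates the receptor of the hepatocyte itself. The comparison of the 4 groups asks whether the RNA of these factors differs between the sexes and whether it depends on *Esr1*.

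These factors sit at the top of the hepatocyte program. FOXA proteins are forkhead factors that open chromatin for other regulators, HNF4A is the nuclear receptor on which most hepatocyte genes depend, and the ONECUT proteins (ONECUT1 is also called HNF6) and CEBPA act beside them on genes of metabolism and of secreted plasma proteins. PROX1 is a homeobox protein that sets hepatocyte fate and represses HNF4A and NR5A2 targets, and NR5A2 is the nuclear receptor that drives bile acid synthesis. They bind the promoters and enhancers of one another, and in rodent liver HNF4A, FOXA and ONECUT1 sites also lie beside genes with sex-biased expression.

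Levels are given as CPM, counts divided by the library total in the usual per-million unit, after scaling of the libraries by the trimmed mean of M values (TMM), and group differences as log2 fold changes with their standard error (SE). Differences were tested with edgeR's quasi-likelihood F test over all 17655 genes, and a gene was called at a Benjamini-Hochberg adjusted p under 0.05. Total counts lay between 27799061 and 78624766 per mouse, and *Foxa1*, the least abundant of the 9, was counted at least 163 times in each liver. *Esr1* itself followed the genotype labels, with a mean of 81.9 CPM in WT females and 36.1 in WT males against 13.1 in ESR1KO females and 11.9 in ESR1KO males. WT male replicate 3 held more *Esr1* (52.0 CPM) than the other WT males (25.04 and 31.2 CPM), and it also stood apart for several of the factors below. The 7 hepatocyte markers examined, among them *Alb*, *Ttr* and *Apob*, summed to 115000 to 122000 CPM in WT females and 93300 to 95300 CPM in WT males. The sums of the WT sexes did not overlap, as was the case for 30.1% of single genes tested. In the ESR1KO mice the sums were 96900 to 124000 CPM. *Alb* was the only marker called between the WT sexes, with a log2 difference of 0.66 in females minus males. The median over the 7 markers was -0.35, against the direction of the sum. In bulk tissue a lower level can mean fewer cells of a type or less RNA per cell, and these cannot be told apart.

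None of the 9 factors was called by edgeR or DESeq2 in any of the planned comparisons when all 15 mice were fitted together. With edgeR, 0 of the 9 differed between WT females and WT males, where 4.87% of all genes were called, and 0 between ESR1KO females and males, where 0.272% were. For ESR1KO against WT mice the count was 0 in females beside 5.71% of all genes and 0 in males beside 1.42%, and 0 differed in their genotype effect between the sexes, beside 1.94%. The level of *Hnf4a* came nearest to a call in an unplanned contrast, the average of both sexes, added after the data had been seen. There it was 0.29 lower on the log2 scale in ESR1KO than in WT mice (edgeR, adjusted p = 0.0535). In the planned comparisons of ESR1KO with WT mice its adjusted p was 0.199 in males and 0.220 in females (edgeR). *Foxa3* was lower in WT females than in WT males in every mouse, by a margin that passed or missed the threshold with the choice of mice used to estimate the spread. *Onecut1* varied more between livers of a single group than nearly all genes of its abundance. *Cebpa* and *Nr5a2* were the steadiest beside *Hnf4a*, and no group difference was detectable for them.

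The promoter DNA of 4 of the factors is shown because the results below turn on them or because they hold a site for another of the 9. Each sequence is the stretch upstream of a RefSeq transcript start, on the coding strand and in build GRCm38.p6, cut where an exon of the gene begins in GENCODE M21. Capitals mark the ONECUT core TTGATT or its reverse complement. *Hnf4a* is shown at the upstream of its 2 starts, known as the P2 promoter (chr2:163506607-163506807, plus strand), *Foxa2* at chr2:148046970-148047219 (minus strand), *Foxa3* at chr7:19023540-19023789 (minus strand) and *Onecut1* at chr9:74861671-74861920 (plus strand).
Hnf4a: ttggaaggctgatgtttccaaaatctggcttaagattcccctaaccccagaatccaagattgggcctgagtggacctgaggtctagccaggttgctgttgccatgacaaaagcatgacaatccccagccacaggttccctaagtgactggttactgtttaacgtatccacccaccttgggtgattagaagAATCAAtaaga
Foxa2: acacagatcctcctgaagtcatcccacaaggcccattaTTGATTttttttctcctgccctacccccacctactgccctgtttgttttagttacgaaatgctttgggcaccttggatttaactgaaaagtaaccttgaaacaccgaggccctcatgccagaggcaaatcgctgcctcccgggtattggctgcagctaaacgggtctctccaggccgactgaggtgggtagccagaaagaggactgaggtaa
Foxa3: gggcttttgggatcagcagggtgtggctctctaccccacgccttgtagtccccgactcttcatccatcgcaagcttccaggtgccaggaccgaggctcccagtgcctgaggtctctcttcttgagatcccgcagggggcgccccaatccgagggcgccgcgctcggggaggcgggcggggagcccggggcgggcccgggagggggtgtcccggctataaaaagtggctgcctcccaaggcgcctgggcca
Onecut1: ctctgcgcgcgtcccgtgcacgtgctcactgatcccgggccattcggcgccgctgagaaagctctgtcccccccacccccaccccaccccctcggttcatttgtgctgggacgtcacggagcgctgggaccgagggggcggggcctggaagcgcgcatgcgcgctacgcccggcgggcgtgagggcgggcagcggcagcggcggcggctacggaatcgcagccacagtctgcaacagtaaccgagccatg

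RefSeq promoter windows of 300 bases, from 250 before to 50 after each start, were found for 8 of the 9 genes and numbered 13. Motifs were searched on both strands, and each share is of all 32851 mouse windows. The ONECUT core TTGATT lay in 3 member windows, at base -60 of the upstream *Hnf4a* start, at base -212 of *Foxa2* and at base 14 of another *Foxa2* start, and was present in 11.8% of all windows. The downstream *Hnf4a* start, known as P1 and as the one used by adult hepatocytes, held none of the motifs. A FOXA site, TGTTTAC, lay in 1 member window, that of *Foxa1*, where its reverse complement begins at base -141, against 3.65% of all windows. The short C/EBP core TTGCAA lay in 1 window each of *Nr5a2* and *Prox1*, against 6.23% of all windows. The longer C/EBP palindrome TTGCGCAA (0.183% of all windows), the HNF4A sites CAAAGTCCA and CAAAGGTCA (0.95%), the NR5A2 sites CAAGGTCA and CAAGGCCA (3.92%) and the estrogen response element (0.07%) lay in none of the 13. These are matches of letters, and windows of this length hold no distal enhancer.

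The factors differed widely in abundance, and levels between genes are compared per kilobase of merged exons. *Hnf4a* and *Cebpa* led with means over the 15 mice of 107 and 104 CPM per kilobase, and *Hnf4a* was the higher of the pair in 9 of 15 mice, so their order was not settled by the spread. *Foxa3* followed at 30.04 CPM per kilobase and lay above *Prox1* (14.3) in 15 of 15 mice. *Prox1* and *Nr5a2* (14.1) changed places from mouse to mouse, with *Prox1* higher in 8 of 15.

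The lower end was held by *Foxa2* at 8.73, *Onecut2* at 7.98, *Onecut1* at 4.42 and *Foxa1* at 2.27 CPM per kilobase of exons. *Foxa2* lay above *Onecut2* in 11 of 15 mice, *Onecut2* above *Onecut1* in 13 and *Onecut1* above *Foxa1* in 12. The place of *Onecut1* is uncertain, since its exons overlap another gene and its level may be understated, as described below. The exon length matters for *Onecut2*, whose annotated exons sum to 16234 bases of which 1515 are coding. With the same counts of all exons divided by coding length, *Onecut2* moved to rank 3, while *Foxa3* stood at rank 4, *Prox1* at 5, *Nr5a2* at 6 and *Foxa2* at 7. Counts were not restricted to coding bases, so this measure raises genes with long noncoding exon parts, *Onecut2* most of all, and is no coding level.

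*Hnf4a* (ENSMUSG00000017950, chr2:163506808-163572910, plus strand, GRCm38) encodes the hepatocyte nuclear receptor that activates apolipoprotein, clotting factor and bile acid genes. It stood at 536, 567.6 and 606 CPM in the WT females and at 572, 609 and 586 CPM in the WT males. In the ESR1KO females the levels were 429, 442, 518, 464 and 569 CPM, and in the ESR1KO males 420, 492, 486 and 465 CPM. Every ESR1KO male lay below every WT male, a separation seen in 15.9% of all genes tested, whereas among females only ESR1KO replicate 5, at 569 CPM, overlapped the WT range.

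The difference of *Hnf4a* between ESR1KO and WT males was -0.34 (SE 0.12, 95% interval -0.58 to -0.095; edgeR, adjusted p = 0.199). In females it was -0.23 (SE 0.11, interval -0.47 to -0.00089; edgeR, adjusted p = 0.220). Averaged over both sexes, a contrast added after *Hnf4a* had been seen lower in mutants of both, it was -0.29 (SE 0.080, interval -0.46 to -0.12; edgeR, adjusted p = 0.0535), or 0.820 times the WT level. This value sits at the threshold, and it was called by DESeq2 (adjusted p = 0.00422), with total counts in place of TMM (edgeR, adjusted p = 0.0421), with a filter of 1 CPM in 3 libraries (edgeR, adjusted p = 0.0396), with the replicate block (edgeR, adjusted p = 0.0480), and without ESR1KO female replicate 1 (edgeR, adjusted p = 0.0459) or replicate 5 (edgeR, adjusted p = 0.0221). *Hnf4a* was not called in the main fit, with DESeq2's size factors in edgeR, with no filter, or without any 1 of the other mice. The share of all genes called in the main fit of the averaged contrast was 4.13%. Leaving out each mouse in turn gave averaged differences between -0.32 and -0.26. *Hnf4a* had the smallest spread of the 9, an SD of 0.123 on the log2 scale within groups, which was larger than in 12% of 166 genes of like abundance. Its antisense gene *Hnf4aos*, which shares no exon bases with it, stood at 4.12 to 9.83 CPM and was not called in any comparison (lowest adjusted p = 0.196, edgeR, lower in WT females than in WT males by a log2 difference of -0.49).

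**Figure D1:**
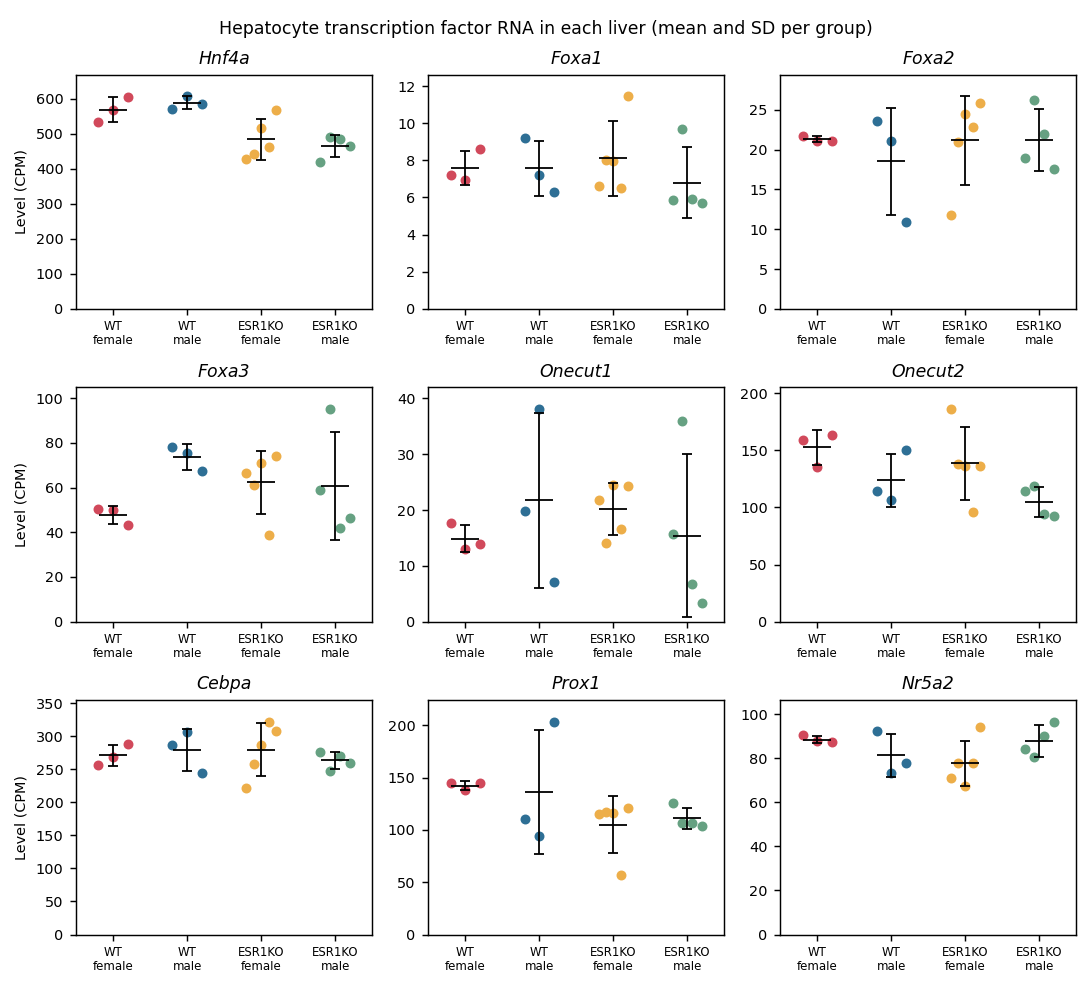
Level of each factor in each of the 15 livers, in CPM on a linear axis from 0, by genotype and sex, with a bar at the group mean and error bars of 1 SD. *Hnf4a* lay at 420 to 492 CPM in ESR1KO males, below the 572 to 609 CPM of WT males, and *Onecut1* ran from 3.404 to 38.2 CPM.

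The FOXA genes were represented mainly by *Foxa3*, which took between 62.0% and 83.6% of the summed per-kilobase level of the family in each mouse, with a median of 72.7%. *Foxa3* (ENSMUSG00000040891, chr7:19013284-19023538, minus strand) is the family member most abundant in adult liver. It stood at 50.2, 50.01 and 43.1 CPM in WT females and at 78.3, 75.3 and 67.2 CPM in WT males, with no overlap. The ESR1KO mice did not keep this order, since females stood at 66.4, 61.2, 71.1, 38.6 and 74.0 CPM and males at 58.7, 95.2, 41.9 and 46.5 CPM. The ranges of the ESR1KO sexes overlapped. At the ends, ESR1KO male replicate 2, the highest of any liver, lay above all ESR1KO females, and ESR1KO female replicate 4, the lowest, lay below all ESR1KO males.

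The sex difference of *Foxa3* in WT mice was -0.62 (SE 0.26, 95% interval -1.17 to -0.080), 0.649 times the male level in females, with an unadjusted p of 0.0271 and an adjusted p of 0.210 in edgeR. DESeq2 gave an adjusted p of 0.146. Fitted on the 6 WT mice alone, whose SDs of 4.04 CPM in females and 5.74 CPM in males were smaller than the 14.1 and 24.2 CPM of the mutants, the difference was -0.62 and the adjusted p 0.00592 (edgeR). In WT mice 30.1% of all genes tested had sexes that did not overlap. In ESR1KO mice the sex difference was 0.040 (SE 0.21, interval -0.40 to 0.49; edgeR, adjusted p = 0.936). The difference between the genotype effects of the sexes was 0.66 (SE 0.33, interval -0.039 to 1.37; edgeR, adjusted p = 0.372), so that the sex differences of WT and ESR1KO mice were not shown to differ. Over the mice left out in turn it ranged from 0.52, without ESR1KO male replicate 3, to 0.97, without ESR1KO male replicate 2. It was called in none of these fits (edgeR, lowest adjusted p = 0.0724, without ESR1KO male replicate 2).

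*Foxa2* (ENSMUSG00000037025, chr2:148042877-148046969, minus strand), which acts in fasting metabolism and bile acid balance, stood at 21.7, 21.1 and 21.1 CPM in WT females and at 23.6, 21.1 and 10.9 CPM in WT males. ESR1KO females held 11.7, 21.01, 24.5, 22.9 and 25.8 CPM and ESR1KO males 19.0, 26.3, 21.9 and 17.5 CPM. The low levels came from 2 mice, WT male replicate 3 and ESR1KO female replicate 1, and the other 13 lay between 17.5 and 26.3 CPM. *Foxa1* (ENSMUSG00000035451, chr12:57540628-57546916, minus strand), a pioneer factor that overlaps *Foxa2* in function, had the lowest level of the 9, from 5.68 to 11.5 CPM over all mice, and its group means lay between 6.80 and 8.12 CPM. The differences of *Foxa1* and *Foxa2* in the 4 pairwise comparisons lay between -0.15 and 0.26, and their adjusted p in edgeR between 0.479 and 0.998. Without WT male replicate 3 the *Foxa2* difference between WT females and males went from 0.21 to -0.069.

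*Onecut1* (ENSMUSG00000043013, chr9:74861921-74891781, plus strand) encodes a cut-homeodomain factor that responds to growth hormone in liver and binds near sex-biased genes. It stood at 17.6, 13.0 and 13.96 CPM in WT females and at 19.9, 38.2 and 7.09 CPM in WT males. ESR1KO females held 21.7, 14.1, 24.6, 16.7 and 24.2 CPM and ESR1KO males 15.7, 36.01, 6.67 and 3.404 CPM. All 3 livers below 10 CPM and both above 30 CPM were male, so that males of either genotype spanned nearly the whole range and females lay inside it. The highest liver held 11.2 times the lowest, against 2.42 times for *Foxa2*.

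The SD of *Onecut1* within groups was 0.958 on the log2 scale, larger than in 99.8% of the 2303 genes of like abundance, whose median SD was 0.169. *Foxa2* (96.5%), *Prox1* (95.4%) and *Foxa3* (94.9%) also varied more than most genes of their abundance, *Foxa1* (87.4%) and *Onecut2* (80.8%) less so, and *Nr5a2* (37%), *Cebpa* (32.6%) and *Hnf4a* (12%) did not. With this spread the intervals of *Onecut1* were wide. ESR1KO females minus WT females was 0.45 (SE 0.57, interval -0.75 to 1.65) and ESR1KO males minus WT males -0.50 (SE 0.58, interval -1.73 to 0.74), neither called (edgeR, adjusted p = 0.679 and 0.818). The male livers with the lowest *Onecut1* were sequenced to 78624766, 58288552 and 62050815 total counts, more than most, and ESR1KO female replicate 5, at 65665473, held 24.2 CPM. The study's methods give a single lane and a further run that topped up samples with few reads, without naming those samples. The parts of depth and of this top-up run in the spread were not tested. *Onecut1* shares 2171 of its 4113 exon bases with the noncoding gene *Gm20649* on the same strand, which held between 0 and 5 counts per mouse. Reads in the shared bases may have been left uncounted, so the level of *Onecut1* is uncertain, and the same bases are shared in every mouse.

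**Figure D2:**
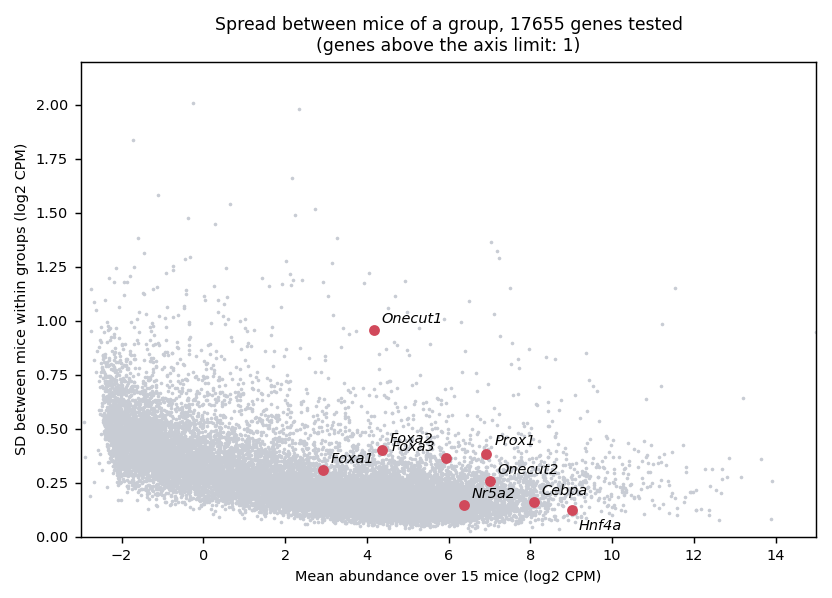
SD between mice of a group, pooled over the 4 groups (log2 CPM), against mean abundance over 15 mice (log2 CPM) for 17655 genes in grey, with the 9 factors in red. *Onecut1* at an SD of 0.958 stands far above the cloud at its abundance, and *Hnf4a*, *Cebpa* and *Nr5a2* lie low in it.

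*Onecut2* (ENSMUSG00000045991, chr18:64340020-64400987, plus strand), the paralogue of *Onecut1*, was less variable and ranged from 92.8 to 186 CPM. WT females held 159, 135 and 164 CPM and WT males 115, 107 and 150 CPM. ESR1KO females held 186, 138, 137, 96.2 and 136 CPM and ESR1KO males 114, 119, 94.3 and 92.8 CPM. Female means were the higher in both genotypes, 152 against 124 CPM in WT and 139 against 105 CPM in ESR1KO mice, with overlap in each. The sex difference was 0.40 in ESR1KO mice (SE 0.16, interval 0.068 to 0.74; edgeR, adjusted p = 0.215) and 0.30 in WT mice (SE 0.19, interval -0.10 to 0.70; edgeR, adjusted p = 0.464). Per kilobase of exons, *Onecut2* ranged from 0.710 to 6.91 times *Onecut1*, with a median of 2.18. Reads of *Onecut1* may have been left uncounted, as given above, so its ratios to *Onecut2* may be overstated. With the same counts of all exons divided by coding length, *Onecut2* ranged from 2.58 to 25.1 times *Onecut1*, with a median of 7.90. That division raises *Onecut2*, most of whose exon bases are noncoding.

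*Prox1* (ENSMUSG00000010175, chr1:190118035-190170714, minus strand) stood at 145, 138 and 144 CPM in WT females, a narrow band above all 5 ESR1KO females at 115, 117, 116, 56.9 and 121 CPM. WT males were split, at 111, 94.4 and 203 CPM, while ESR1KO males held 126, 107, 107 and 104 CPM. The female groups did not overlap, as was the case for 15.6% of all genes tested, and the difference was -0.44 (SE 0.23, interval -0.93 to 0.051; edgeR, adjusted p = 0.276), or -0.28 without ESR1KO female replicate 4, the lowest liver. Averaged over both sexes it was -0.37 (SE 0.17, interval -0.72 to -0.013; edgeR, adjusted p = 0.238). Without WT male replicate 3, which held the highest level, the averaged difference was -0.16 and that in males went from -0.30 to 0.11. *Prox1* is also used by lymphatic endothelium, whose 4 markers summed to 36.6 to 56.4 CPM over all mice. *Ccl21a* was at 0 counts in every library, and the sum was 42.6 CPM in WT male replicate 3, between those of the other WT males (42.0 and 47.1 CPM). The part of these cells in the level of *Prox1* was not tested. The antisense gene *Prox1os* shares 133 exon bases with *Prox1*, stood at 4.61 to 6.90 CPM and was lower in ESR1KO than WT females by a log2 difference of -0.38 that was not called (edgeR, adjusted p = 0.0705). Whether counting used the strand is not given in the sources used here.

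*Cebpa* (ENSMUSG00000034957, chr7:35119293-35121928, plus strand), the C/EBP factor of liver glycogen and lipid metabolism, held group means of 271 ± 15.9 CPM (SD, n = 3) in WT females, of 279 ± 31.6 CPM (SD, n = 3) for the WT males, of 280 ± 40.4 CPM (SD, n = 5) for mutant females and of 264 ± 13.0 CPM (SD, n = 4) for mutant males. *Nr5a2* (ENSMUSG00000026398, chr1:136842571-136960448, minus strand) held 88.5 ± 1.71, 81.3 ± 9.96, 77.8 ± 10.2 and 87.9 ± 7.15 CPM in the same order (SD). All pairwise differences of *Cebpa* lay between -0.083 and 0.085, and the widest of their 95% intervals reached -0.35. Those of *Nr5a2* lay between -0.19 and 0.12, with intervals that reached -0.42. *Nr5a2* is also abundant in exocrine pancreas, of which 3 of 6 markers (*Pnlip*, *Prss2* and *Cel*) were at 0 counts in every liver and all 6 summed to at most 0.0723 CPM.

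Counted at an unadjusted p under 0.05 (edgeR), 1 of the 9 factors passed in each pairwise comparison. It was *Foxa3* between WT females and males, *Onecut2* between ESR1KO females and males, and *Hnf4a* in ESR1KO against WT mice of either sex. None passed in the test of whether the genotype effect differed between the sexes. The shares of all genes that passed in the same way were 17.3% between WT females and males, 17.5% between ESR1KO females and males, 22.5% and 11.9% for ESR1KO against WT females and males, and 14.3% in the last test, so the counts of the factors were no higher than the background. At the shares called after adjustment, 9 genes taken from the table would hold less than 1 call on average, so a count of 0 does not set the factors apart.

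The intervals say more than the counts. In ESR1KO mice against WT mice of the same sex, and between ESR1KO females and males, the 95% interval stayed within a 2-fold change for 8 of the 9 factors, with *Onecut1* the exception. Between WT females and males it did so for 7 of 9, the exceptions being *Onecut1* and *Foxa3*. The direction in ESR1KO males was lower for 7 of the 9 factors, with a median log2 difference of -0.24 beside -0.0011 over all genes. In ESR1KO females 5 of 9 were lower, with a median of -0.0071 beside -0.0013. Since the 9 genes are few and measured in the same mice, these counts are given as a description.

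**Figure D3:**
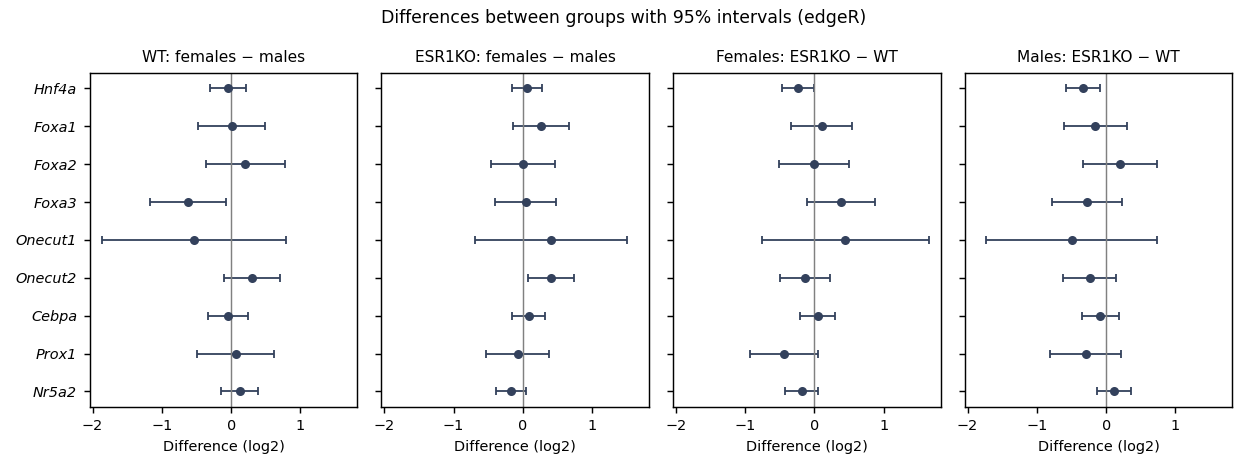
Log2 difference of each factor with its 95% interval (edgeR) in 4 comparisons, WT females minus males, ESR1KO females minus males, and ESR1KO minus WT in females and in males, on one scale. The intervals of *Hnf4a* lie below 0 in both ESR1KO against WT panels, at -0.23 and -0.34, and those of *Onecut1* are the widest throughout.

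Correlations between the factors were tested across the 15 mice, and the values after removal of group means were not tested. Of 36 pairs of factors, 0 passed Benjamini-Hochberg adjustment of permutation p-values, two-sided with 100000 resamples, and the lowest adjusted p was 0.123 for Pearson's r and 0.0585 for Spearman's rho. *Onecut2* and *Prox1* had an r of 0.626 (permutation p = 0.0088, adjusted p = 0.123) and a rho of 0.721 (permutation p = 0.00314, adjusted p = 0.0585). Their r was 0.669 without the 2 mice farthest from the *Onecut2* median and 0.788 after group means were removed. The mice with extreme *Prox1*, ESR1KO female replicate 4 (56.9 CPM) and WT male replicate 3 (203 CPM), were not among those left out. *Foxa3* and *Onecut1* had an r of 0.616 (permutation p = 0.0130, adjusted p = 0.123) and a rho of 0.725 (permutation p = 0.00325, adjusted p = 0.0585). Their r was 0.645 without the 2 mice farthest from the *Foxa3* median. For *Foxa2* and *Cebpa*, r fell from 0.636 (permutation p = 0.00996, adjusted p = 0.123) to 0.211 without the 2 mice farthest from the *Foxa2* median. It thus rested on them. After group means were removed it was 0.721, a value that includes those 2 mice. *Onecut2* and *Cebpa* ran against each other, with an r of -0.474 (permutation p = 0.0733, adjusted p = 0.308) and -0.777 after group means were removed. The labels give no litter or batch, and the samples of the top-up run are not named, so no within-batch value could be had.

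The genes whose log2 CPM followed each factor most closely over the 15 mice are given as a description, chosen as the highest Pearson's r among genes with a mean of at least 1 log2 CPM. They were *Ddi2* (0.881), *Pde4dip* and *Tox4* for *Hnf4a*, *Hhex* (0.855), *Cish* and *Dffb* for *Foxa1*, and *Snx3* (0.901), *Acat3* and *Kctd10* for *Foxa2*. *Foxa3* was followed by *Fam160a2* (0.895), *Aggf1* and *Rbbp4*, and *Onecut1* by *Wdr45b* (0.910), *Abhd17b* and *Gpatch2*. *Onecut2* was followed by *Gm42702* (0.903), *Slfn9* and *Isg15*, *Cebpa* by *Gm17586* (0.852), *Narfl* and *Prkag1*, *Prox1* by *Rreb1* (0.926), *Mpzl2* and *Srrm1*, and *Nr5a2* by *Mcc* (0.830), *4930523C07Rik* and *Zscan2*. *Hhex*, itself a homeobox factor of liver, followed *Foxa1* with an r of 0.897 after group means were removed.

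The partners and targets of the 9 factors were read from the same fit. Of 23 other liver transcription factors, 21 were tested, and *Zbtb20*, a zinc finger repressor of the fetal gene *Afp*, was called lower in WT females (328 CPM) than in WT males (508 CPM), by -0.63 (SE 0.18; edgeR, adjusted p = 0.0478). No other member of that list was called in any comparison, and 4.87% of all genes were called in this one. The call of *Zbtb20* was fragile, since it was lost without any 1 of 13 of the 15 mice, every WT mouse among them, and held only without ESR1KO female replicate 1 or 4 (edgeR, adjusted p = 0.0184 to 0.189). Of 13 cofactors, the steroid receptor coactivator *Ncoa2* was called lower in ESR1KO females (64.0 CPM) than in WT females (81.1 CPM), by -0.34 (SE 0.089; edgeR, adjusted p = 0.0353), and in the contrast averaged over the sexes (-0.27, edgeR, adjusted p = 0.0268), beside 5.71% and 4.13% of all genes. The female call was lost without any 1 WT female, ESR1KO female replicate 2 or 4 or ESR1KO male replicate 1 (edgeR, adjusted p up to 0.149). The averaged call was lost without WT female replicate 2 or 3, WT male replicate 2 or 3, or ESR1KO male replicate 1 or 2 (edgeR, adjusted p up to 0.0979).

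Of 24 textbook targets of the factors, *Alb*, the gene of serum albumin, was called higher in WT females than in WT males (0.66, SE 0.18; edgeR, adjusted p = 0.0383), where 4.87% of all genes were called. This call was lost without any 1 WT mouse, any 1 ESR1KO male or ESR1KO female replicate 3, which is 11 of the 15 mice (edgeR, adjusted p up to 0.122). *Scarb1*, the receptor for high density lipoprotein, was called lower in ESR1KO than in WT females (-0.59, SE 0.16; edgeR, adjusted p = 0.0370), beside 5.71% of all genes. It was lost without any 1 WT female, ESR1KO female replicate 2 or ESR1KO male replicate 1 (edgeR, adjusted p up to 0.143). In the contrast averaged over both sexes, in which *Hnf4a* lay at the threshold, 3 of the 24 targets were called, beside 4.13% of all genes. Without 1 mouse the count ran from 0, without WT female replicate 3 or WT male replicate 2 or 3, to 5, without ESR1KO female replicate 1. *Apoa2*, an apolipoprotein of high density lipoprotein, was higher (0.36, SE 0.094; edgeR, adjusted p = 0.0395), while *Pck1*, the enzyme that commits carbon to gluconeogenesis, was lower (-0.71, SE 0.18; edgeR, adjusted p = 0.0367) and so was *Scarb1* (-0.48, SE 0.11; edgeR, adjusted p = 0.0264). The calls were lost without any 1 of 9 mice for *Apoa2*, of 9 for *Pck1* and of 6 for *Scarb1*. The median over the 24 targets was 0.057 beside 0.0049 over all genes.

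A list of 9 regulators chosen for known sex-biased or hormone-dependent action in liver, which includes the targeted gene *Esr1*, was read from the same fit. Of these, 5 were called higher in WT females than in WT males, beside 4.87% of all genes, among them *Esr1* and, the largest, *Cux2* (6.14, SE 0.60), *Tox* (2.05, SE 0.24) and *Trim24* (1.87, SE 0.21). In ESR1KO against WT females 5 were called lower, beside 5.71% of all genes, of which *Esr1* is fixed by the design and the other 4 were *Cux2*, *Trim24*, *Tox* and *Stat5a*. The call of *Stat5a* was lost without any 1 WT female or ESR1KO female replicate 2, and that of *Esr1* between WT sexes without WT female replicate 2 or 3 or WT male replicate 1 or 2. Between ESR1KO females and males 1 was called (*Cux2*, higher in females), beside 0.272% of all genes, and this call was lost without ESR1KO male replicate 1 or 4. In ESR1KO against WT males 1 was called higher (*Tox*, lost without any 1 of 8 mice) and 1 lower (*Esr1*), beside 1.42% of all genes. *Cux2* encodes a cut-homeodomain protein, as the ONECUT factors are, that is known to bind at many ONECUT1 sites in female liver, and its mean was 45.5 CPM in WT females and 4.44 in ESR1KO females against 0.624 and 0.519 in WT and ESR1KO males. *Onecut1* means in the same order were 14.9, 20.3, 21.7 and 15.4 CPM.

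**Figure D4:**
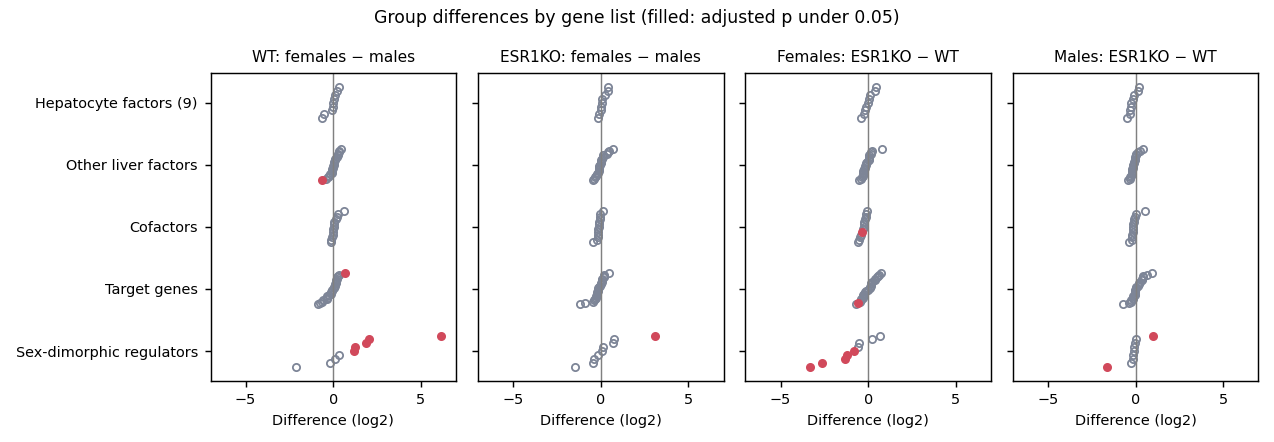
Log2 differences of the 9 factors and of the 4 gene lists beside them in 4 comparisons, each circle a gene, filled where the adjusted p was under 0.05 (edgeR). The 9 factors hold no filled circle, the other liver factors 1 (*Zbtb20*), and the sex-dimorphic regulators up to 5 in a panel (*Esr1* included), with *Cux2* at 6.14 farthest out.

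Bile duct cells express *Onecut1*, *Foxa1* and *Foxa2* as well. Single markers of these cells were called, in both directions between the WT sexes and only higher in ESR1KO against WT mice. The 7 markers summed to 32.8 to 33.2 CPM in WT females, 34.3 to 55.7 CPM in WT males, 43.9 to 51.7 CPM in ESR1KO females and 41.5 to 59.7 CPM in ESR1KO males, most of it *Spp1*, and none was at 0. In WT females against males, where 4.87% of all genes were called, *Epcam* was called higher (1.08, SE 0.22; edgeR, adjusted p = 0.00657) and *Sox9* lower (-1.03, SE 0.27; edgeR, adjusted p = 0.0384). The median over the 6 markers tested was 0.39. In ESR1KO against WT females, where 5.71% of all genes were called, *Spp1* was called higher (0.60, SE 0.15; edgeR, adjusted p = 0.0272). The call of *Sox9* was lost without any 1 WT female or WT male replicate 3, and that of *Spp1* without any 1 WT female. In ESR1KO against WT males, where 1.42% of all genes were called, *Krt19* (1.23, SE 0.27; edgeR, adjusted p = 0.0307) and *Epcam* (0.95, SE 0.21; edgeR, adjusted p = 0.0300) were called higher. The other 4 markers tested were not. The call of *Krt19* was lost without any 1 of 6 male mice (the 3 WT males and ESR1KO male replicates 1, 2 and 3) and that of *Epcam* without any 1 of 5 (the 3 WT males and ESR1KO male replicates 3 and 4). In the contrast averaged over both sexes, where 4.13% of all genes were called, *Krt19* was called higher (0.80, edgeR, adjusted p = 0.0221). That call was lost without WT female replicate 3 or WT male replicate 3. The differences of the 6 markers tested were all above 0 there, with a median of 0.32 beside 0.0049 over all genes. The part of bile duct cells in the levels of the factors was not tested.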

How the data were processed

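Liver RNA of 15 mice was depleted of ribosomal RNA and sequenced in paired ends. Per the labels and the methods of the study, the authors trimmed reads (Trimmomatic 0.36), used STAR for alignment to GRCm38 and HTSeq for gene counts. The deposited counts are whole numbers without normalization, all columns were used, and the annotation release, strand setting and overlap mode are not given in the sources used here. Groups were taken from the labels.

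The analysis used edgeR 4.0.16 in R 4.3.3. Genes were kept by filterByExpr (17655), scaled by TMM, and fitted in 1 quasi-likelihood model of the 4 group means. P values were adjusted by Benjamini-Hochberg over all genes tested, and the count test of DESeq2 1.42.0 was an alternative. CPM used the TMM factors, and log2 CPM a prior count of 2. Gene positions and lengths came from GENCODE M21 and promoter windows from RefSeq (GRCm38.p6). Genes of like abundance lay within 0.5 log2 CPM. Counts of mice of the same group differed by a chi-square of at least 24.9 per gene, so no library was a copy of another. Each library is 1 mouse. In the main fit a p-value sets a group difference against the spread between mice, which is estimated over all 4 groups together.

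The 9 factors, the gene lists (other liver factors, cofactors, targets and sex-biased regulators) and the tests were chosen with earlier results of these data known. From each list at most the 3 called genes with the largest change per comparison are named, and for each factor the 3 genes that followed it most closely. *Esr1* and *Stat5a* are named outside this rule, after their values were seen. A further called gene of the sex-biased list is not reported here. The contrast averaged over both sexes was added after the data had been seen. Alternatives were DESeq2's size factors, total counts, no filter, 1 CPM in 3 libraries, only the groups compared, the replicate block, a log2 fold change of at least 1.5, unadjusted p, and each mouse left out in turn.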

Additional observations from a re-analysis of the deposited data

Results flagged for a closer look

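In the ESR1KO groups, the only ones with 4 or more mice, 18 sets of values (9 factors in 2 groups) were searched for a mouse far from the rest of its group, and 3 were found by Dixon's test, where chance gives about 1 in 20. *Foxa1* stood at 9.68 CPM in ESR1KO male replicate 2, against 5.68 to 5.94 CPM in the other ESR1KO males (gap over range 0.935, critical value 0.829). *Prox1* stood at 56.9 CPM in ESR1KO female replicate 4, against 115 to 121 CPM in the others (0.903, critical value 0.71), and the same liver held the lowest *Foxa3* (38.6 CPM) and the highest *Cebpa* (322 CPM) of all 15. *Prox1* stood at 126 CPM in ESR1KO male replicate 1, against 104 to 107 CPM in the others (0.868, critical value 0.829), and this library had the lowest total, 27799061 counts.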

How the results depend on the processing

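The count of called factors was 0 in all 5 planned comparisons under every alternative scaling, filter and test, with the replicate block and without any 1 mouse, except in WT females against males, where it was 1 (*Foxa3*) with only the groups compared. With unadjusted p it was 1 in each pairwise comparison and 0 in the test of a sex difference in genotype effect. In the contrast averaged over both sexes it was 1 (*Hnf4a*) with total counts, 1 CPM in 3 libraries, the replicate block or DESeq2. DESeq2 called 1235 of all 17655 genes in this contrast, against 729 in the main fit. With unadjusted p the count of factors was 2, where 19.4% of all genes passed. Over the mice left out it was 0 to 1, with 1 only without ESR1KO female replicate 1 or 5. The replicate numbers are not said to pair mice, and deviations of same-numbered mice correlated at -0.195 to 0.14 over 18 pairs, of which 1 was over 0.1. The cause of each change below was not tested unless the setting itself shows it.

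Calls over all genes moved more. WT females against males gave 860, or 319 with a log2 fold change of at least 1.5, 3060 with unadjusted p and 541 to 1096 over the mice left out. ESR1KO females against males gave 48, or 313 with no filter, 26 with only the groups compared, 456 with DESeq2, 25 with the fold minimum, 3092 unadjusted and 26 to 109 over mice. ESR1KO against WT females gave 1008, or 457 with only the groups compared, 1546 with DESeq2, 212 with the fold minimum, 3973 unadjusted and 413 to 1538 over mice. In males it gave 250, or 411 with no filter, 165 with the replicate block, 422 with only the groups compared, 499 with DESeq2, 102 with the fold minimum, 2099 unadjusted and 100 to 331 over mice. The test between those gave 343, or 594 with DESeq2, 192 with the fold minimum and 2520 unadjusted. The averaged contrast gave 729, or 1235 with DESeq2, 94 with the fold minimum, 3425 unadjusted and 353 to 1017 over mice.

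Of the factors' fold changes, 312 values under other settings and 669 without 1 mouse kept direction and side of the threshold. The 12 and 34 that changed sign are given next, the second as ranges. In WT females against males, *Foxa1* was -0.0087 with DESeq2's size factors, -0.046 with no filter and -0.0096 with DESeq2, and *Cebpa* 0.0078 with total counts. In ESR1KO females against males, *Hnf4a* was -0.0077, *Foxa2* -0.076 and *Foxa3* -0.012 with the replicate block, and *Foxa2* -0.0058 with DESeq2's size factors and -0.0065 with DESeq2. In ESR1KO against WT females, *Foxa1* was -0.0026 and *Cebpa* -0.040 with the replicate block, and *Foxa2* 0.027 with no filter.

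Without each mouse in turn, WT females against males ranged from -0.11 to 0.17 for *Foxa1*, -0.069 to 0.42 for *Foxa2*, -0.96 to 0.15 for *Onecut1*, -0.13 to 0.030 for *Cebpa* and -0.14 to 0.47 for *Prox1*. ESR1KO females against males ranged from -0.0072 to 0.098 for *Hnf4a*, -0.081 to 0.15 for *Foxa2*, -0.10 to 0.35 for *Foxa3* and -0.13 to 0.080 for *Prox1*. ESR1KO against WT females ranged from -0.062 to 0.20 for *Foxa1*, -0.090 to 0.15 for *Foxa2* and -0.012 to 0.12 for *Cebpa*. ESR1KO against WT males ranged from -0.37 to 0.0095 for *Foxa1*, -0.078 to 0.41 for *Foxa2*, -1.37 to 0.19 for *Onecut1* and -0.50 to 0.11 for *Prox1*. The difference between those effects ranged from -0.42 to 0.070 for *Foxa2*, -0.059 to 0.21 for *Onecut2* and -0.55 to 0.065 for *Prox1*.

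With total counts the WT female level was 21.8 CPM for *Foxa2* and 90.7 CPM for *Nr5a2*, more than 1 SD from the main value. With counts of all exons divided by coding length, *Onecut2* ranked 3, *Foxa3* 4, *Prox1* 5, *Nr5a2* 6 and *Foxa2* 7. With 3 to 5 mice a group, the spread between mice limits the intervals.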

Other observations

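Among the WT males, which were too few for that test, replicate 3 held the lowest *Foxa2* of all 15 livers (10.9 CPM) and the highest *Prox1* (203 CPM), with *Onecut1* at 7.09 CPM. Among the ESR1KO males, replicate 2 held the highest *Foxa2* (26.3 CPM) and *Foxa3* (95.2 CPM) of all 15 livers, with *Onecut1* at 36.01 CPM. *Foxa3* and *Onecut1* in the other 3 ESR1KO males lay between 41.9 and 58.7 CPM and between 3.404 and 15.7 CPM.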
